A study of Mus musculus with 4 samples.

Results

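The neuropeptide genes that uninjured primary sensory neurons express constitutively were examined in single-cell RNA sequencing of mouse lumbar dorsal root ganglia (DRG). The genes were Calca, Calcb, Tac1, Sst, Nppb, Penk, Cartpt and Pdyn. They were taken by symbol from the deposited feature tables, where each symbol matched exactly 1 of the 31053 genes, so the set held 8 genes. All groups carried the same genotype. The mice were heterozygous Pirt-EGFPf on a C57BL/6 background, in which farnesylated EGFP replaces the reading frame of Pirt and is driven by the Pirt promoter, which is active in most primary sensory neurons. The mice were 7 to 8 weeks old and had both sciatic nerves either loosely constricted (chronic constriction injury, CCI) or exposed in a sham operation. GFP+ cells were sorted from the L4-5 DRGs on day 7. There were 4 libraries, Male-Sham and Female-Sham for the sham operation and Male-CCI and Female-CCI for the injury, each pooled from 5 mice and 20 DRGs. Each surgery was thus represented by 1 male and 1 female pool, and p-values measured the spread between those pools only. Littermates received the same operation, so litter and surgery cannot be told apart. Because the reporter replaces 1 Pirt allele and GFP+ cells were sorted, all values describe Pirt-expressing cells of heterozygotes.

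Sensory neuropeptides are made as precursor proteins, cut by prohormone convertases, amidated in many cases, stored in dense-core vesicles and released from central and peripheral endings. Calca encodes calcitonin gene-related peptide (CGRP) alpha and, by alternative splicing, calcitonin. Calcb encodes CGRP beta. Tac1 encodes substance P and neurokinin A, and CGRP and substance P together define the classic peptidergic nociceptors. Sst (somatostatin) and Nppb (the natriuretic polypeptide BNP) mark pruriceptors, Penk and Pdyn encode the opioid precursors of enkephalins and dynorphins, and Cartpt encodes the cocaine- and amphetamine-regulated transcript peptides.

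In GRCm38 with GENCODE vM21 the 8 protein-coding genes lay on 6 chromosomes. Calca (7:114631478-114636357, minus strand) and its paralog Calcb (7:114718643-114723365, plus strand) were neighbours with 82285 bases between them. As they are alike in sequence, their levels are uncertain where reads match both, which was not measured here. The 3′ UMI counts did not separate calcitonin from CGRP transcripts of Calca. Penk (4:4133531-4138819, minus strand) overlapped A830012C17Rik on the opposite strand. The others were Tac1 (6:7554879-7565834, plus), Sst (16:23889573-23890958, minus), Nppb (4:147985788-147987205, plus), Cartpt (13:99898489-99901091, minus) and Pdyn (2:129686565-129699844, minus).

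The cAMP response element (CRE), whose full palindrome is TGACGTCA, was searched in RefSeq promoter sequences of GRCm38.p6, from 250 bases before to 50 bases after the gene start, for the 6 genes that had an entry (all but Calcb and Penk). The palindrome reads the same on each strand. It was present in the promoters of Sst, starting 48 bases before the RefSeq gene start, and of Cartpt, starting 112 bases before it. These RefSeq starts lie inside the GENCODE spans given above, so both palindromes fall within the genes as GENCODE draws them. These promoters are shown because they held the palindrome. Lower levels in Sprr1a+ neurons, reported below, did not set these genes apart, as genes without a full palindrome were lower too. A link between the palindrome and those levels was not tested. The windows of Calca, Tac1, Nppb and Pdyn held no full palindrome, and 588 of all 32851 promoters (1.79%) held one. A match describes the letters only. The 250 bases before the start are given 5′ to 3′ on the minus strand with the palindrome in capitals.
Sst (chr16:23890845-23891094): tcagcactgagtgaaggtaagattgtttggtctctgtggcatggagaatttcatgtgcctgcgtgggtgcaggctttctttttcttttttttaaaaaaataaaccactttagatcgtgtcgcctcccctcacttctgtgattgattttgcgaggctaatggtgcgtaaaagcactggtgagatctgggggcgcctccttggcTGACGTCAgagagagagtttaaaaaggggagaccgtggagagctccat
Cartpt (chr13:99900684-99900933): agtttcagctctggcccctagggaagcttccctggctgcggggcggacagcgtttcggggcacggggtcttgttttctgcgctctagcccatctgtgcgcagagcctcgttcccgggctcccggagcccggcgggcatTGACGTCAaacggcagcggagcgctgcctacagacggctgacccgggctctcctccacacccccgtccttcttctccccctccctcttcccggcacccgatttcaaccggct

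The deposited matrices held 5019, 8035, 4019 and 6618 cell barcodes (libraries are given throughout with sham before CCI and, within each, male before female), with 195684124 to 237069156 UMIs per library. After filtering, 3471, 5548, 2947 and 3749 cells were kept, with median gene numbers between 5980 and 7207. Of the 22186 distinct barcodes deposited, 1085 occurred in more than 1 library, and of the 15698 distinct barcodes kept, 17 did. Of the kept cells 3281, 5398, 2817 and 3638 were neurons. The others had satellite glial cell (SGC) genes as their leading genes. The median number of UMIs per neuron was 45172, 32490, 56457 and 43516.5. Sprr1a, a gene induced by axon injury that is nearly silent in intact neurons, exceeded the limit of ln(1 + UMIs per 10000) above 1 in 42 (1.28%, exact 95% interval 0.924 to 1.73), 144 (2.67%, 2.25 to 3.13), 1467 (52.1%, 50.2 to 53.9) and 1790 (49.2%, 47.6 to 50.8) neurons. These intervals cover counting error only. Cells above the limit are called Sprr1a+ and the others Sprr1a-. UMIs were summed over the cells of each population in each library and are given as CPM, a gene's share of those sums scaled to 1e+06 UMIs, so that a library and not a cell was the replicate, and levels were compared within a gene and not between genes. The SGC-like cells served as the cell type that should lack these transcripts. The source of neuronal transcripts in them was not tested, and as they held fewer UMIs (medians 5118, 4188.5, 5175 and 4416) a given amount of free RNA makes up more of their CPM than of that of neurons. In them Calca stood at 323, 279, 79.8 and 243 CPM, Tac1 at 102, 97.1, 20.9 and 73.5 CPM, Calcb at 22.9, 14.1, 3.92 and 10.5 CPM, and Cartpt at 12.3, 7.04, 0 and 1.75 CPM, whereas Sst, Nppb, Penk and Pdyn were at most 2.65 CPM.

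Neurons were clustered without the 8 genes and named from marker lists that did not hold them. The named classes were NP1- to NP3-like (non-peptidergic), PEP1-, PEP2-, PEP3/4- and PEP5-like (peptidergic), NF1- and NF2-like (after the study's Nefh+ classes), cLTMR-like (C-low threshold mechanoreceptors) and CCI-ind-like (induced by injury), and 3 neuronal clusters stayed unnamed. The NF marker lists held no neurofilament gene, and neurofilament levels were not measured here. The names were rebuilt here, so a difference from the study can come from the naming. The unnamed clusters held 864, 341 and 261 neurons, and the 2 larger ones had SGC genes among their leading genes. In sham neurons each of the 8 genes had its own profile over the classes, and the named class with its highest level was the same in all 5 alternative clusterings tried. For Pdyn that class was cLTMR-like at only 0.299 CPM, and it overlapped the next. The ranking left out the unnamed clusters, which held most of the Pdyn UMIs. These sham levels are descriptions, with no test, and neighbours in the order are said to be apart where the 2 sham libraries of one class lay entirely above those of the next.

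Calca was highest in PEP1-like neurons at 20176 CPM in Male-Sham and 19423 CPM in Female-Sham. PEP3/4-like neurons followed with 15916 and 16338 CPM, and NP3-like (11977 and 11442 CPM) and PEP2-like neurons (9944 and 11550 CPM) overlapped. NF2-like neurons had 6740 and 7249 CPM and NP2-like neurons 1289 and 1691 CPM. The remaining classes had 73.2 to 392 CPM, in CPM close to or below the SGC-like cells of the sham libraries. Calca was thus plentiful in NF2-like and NP3-like neurons as well as in the peptidergic classes, and low in PEP5-like neurons (334 and 392 CPM). Calcb, its paralog, was spread more evenly. Its level ran from 667 and 630 CPM in PEP1-like neurons over 550 and 548 CPM in NP3-like and 535 and 554 CPM in NP2-like neurons, which overlapped, to 253 and 276 CPM in cLTMR-like neurons. NP2-like neurons therefore stood near the NP3-like ones for Calcb and far below them for Calca. NF1-like (39.8 and 60.5 CPM) and NP1-like neurons (21.6 and 25.7 CPM) were lowest for Calcb.

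Tac1, the substance P precursor, was highest in the 4 peptidergic classes, with 7832 and 7543 CPM in PEP1-like, 5734 and 6723 CPM in PEP3/4-like, 3715 and 3422 CPM in PEP2-like and 2214 and 2155 CPM in PEP5-like neurons, and these 4 classes were apart from one another. PEP5-like neurons were Tac1-rich with little Calca. NP3-like neurons, rich in Calca, had 445 and 451 CPM of Tac1, and NF2-like neurons had only 48.7 and 64.4 CPM, below the SGC-like level. Cartpt was a transcript of 3 peptidergic classes. PEP2-like neurons had 843 and 980 CPM, PEP3/4-like neurons 585 and 783 CPM and PEP1-like neurons 452 and 447 CPM, each apart from the next. PEP5-like (33.6 and 86.3 CPM) and NF1-like neurons (42.2 and 52.0 CPM) overlapped, and all other classes had at most 8.51 CPM.

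The pruritogenic peptides Sst and Nppb shared a class. Sst was present at 1093 and 1007 CPM in NP1-like neurons and at no more than 0.417 CPM in any other named class of a sham library, and NP1-like neurons held 99.5%, 99.1%, 99.3% and 99.0% of the Sst UMIs of all neurons in the 4 libraries. Nppb reached 1229 and 971 CPM in NP1-like neurons. It had a further, low level in PEP2-like neurons at 14.5 and 13.5 CPM, which held 2.18% and 4.65% of the Nppb UMIs of the sham libraries. The opioid precursor Penk was highest in PEP5-like neurons, at 240 and 128 CPM, which differed more between the sham pools, as a ratio, than any other of the genes did in its top class. These neurons held 93.9% and 88.0% of the Penk UMIs of sham but 53.9% and 53.2% of those of CCI, where CCI-ind-like neurons held 41.8% and 43.1%. Pdyn was at most 0.372 CPM in every named class of a sham library. Its UMIs came mostly from unnamed clusters (54.8%, 82.5%, 72.2% and 83.3%), and 1 of these, led by Calb1, Rxfp1 and Prlr, had 23.6 CPM of Pdyn over its 190 sham cells and 18.1 CPM over its 71 CCI cells. That cluster also held 2458 CPM of Tac1 and 25.1 CPM of Penk in sham, with Calca (112 CPM) below the SGC-like level of sham and Calcb at 5.66 CPM.

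**Figure D1:**
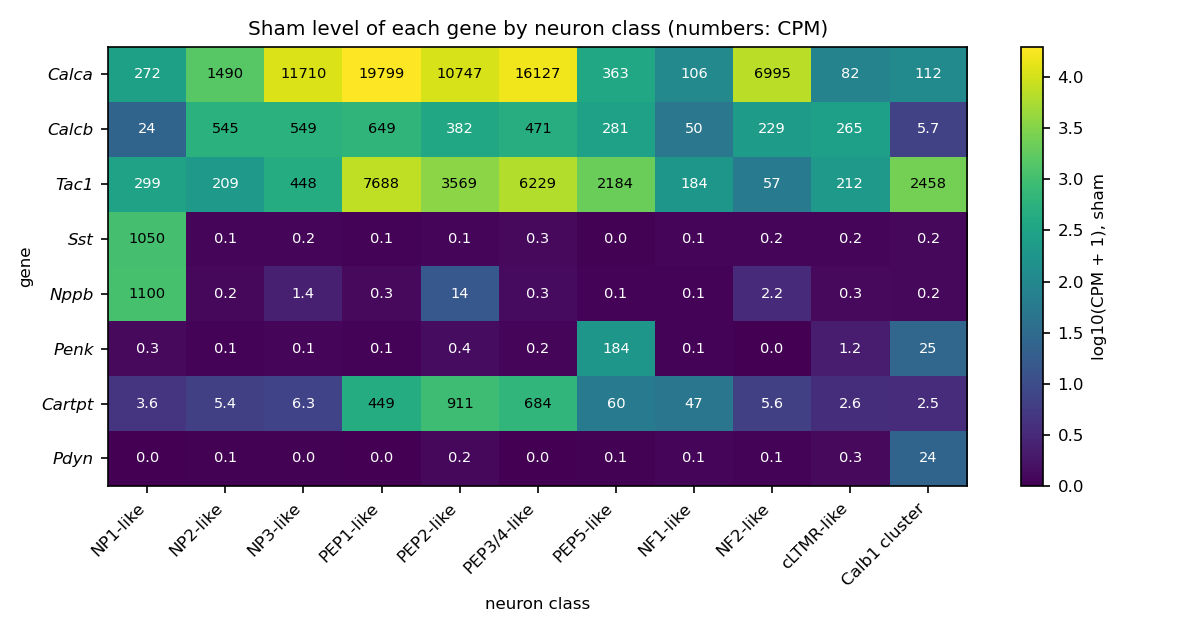
Mean sham level of each neuropeptide gene (rows) in the 10 named neuron classes and in the Calb1 cluster (columns). Numbers are CPM and the colour is log10(CPM + 1). Sst fills only the NP1-like column (1050 CPM), Penk the PEP5-like column (184 CPM) and, more weakly, the Calb1 cluster, whereas Calca spans 6 columns above 1000 CPM.

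Clusters within a class differed in the same genes. Of the PEP2-like clusters, the one led by Dcn, Itga1 and Tmc3 had 29.4 CPM of Nppb and 4448 CPM of Calca in sham, whereas the one led by Col25a1 and Slc5a7 had 0.09 CPM of Nppb and 1388 CPM of Cartpt, so that the low Nppb signal of PEP2-like neurons came from 1 of the 2 clusters. In PEP3/4-like neurons, Cartpt was 1125 CPM over all libraries in the cluster led by Sstr2, Cartpt and Car8 and 184 CPM in the cluster led by Dcdc2a. Of the PEP5-like clusters, the one led by Hjurp and Foxp2 had the least Penk (113 CPM in sham) and the least Tac1, and the one led by Penk, Pnoc and Trpm8, the last a cold-gated channel, had the most of each (464 and 5276 CPM).

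Within single Sprr1a- neurons, cells above the same limit (ln value above 1) for 1 gene were counted for the others. This limit equals 172 CPM, which is below the Calca level of SGC-like cells in each library but Male-CCI (323, 279, 79.8 and 243 CPM). Calca+ cells can therefore include such levels. Of the Sst+ cells, 78 of 78, 61 of 62, 20 of 20 and 21 of 21 were also Nppb+. Conversely, 86.7%, 70.9%, 69.0% and 63.6% of the Nppb+ cells were Sst+, so a part of the Nppb+ cells had no Sst above the limit. Cartpt+ cells were Calca+ in 99.0%, 99.2%, 99.0% and 98.7% and Tac1+ in 99.7%, 99.8%, 98.8% and 98.1%. Penk+ cells (75, 90, 60 and 44) were Tac1+ in 100%, 100%, 98.3% and 97.7% but Calca+ in only 20.0%, 31.1%, 1.67% and 13.6%, against 75.9%, 78.9%, 72.2% and 78.0% of all Sprr1a- neurons. None of the Penk+ cells was Sst+ or Nppb+. Of all Sprr1a- neurons only 2.41%, 1.18%, 1.48% and 1.14% were Sst+ and 2.78%, 1.64%, 2.15% and 1.79% Nppb+, so little overlap could be seen. Tac1+ were 73.9%, 77.8%, 76.4% and 78.2% of all Sprr1a- neurons. Enkephalin precursor transcripts thus lay in substance P-positive cells in which Calca was mostly below the limit, and CART transcripts in cells with both above it.

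The genes whose sham profile over 27 neuronal clusters was most like that of each neuropeptide gene were named by Pearson's r of log2(CPM + 1). The clusters share libraries and depth, so r is a description. For Sst these were 9230105E05Rik (0.992), Gm40538 (0.989) and Fetub (0.982), for Nppb Bmp8a (0.919) and Piezo1 (0.906), for Calca Mst1r (0.938), for Calcb Fah (0.887), for Tac1 Klc3 (0.903), for Penk Cpxm2 (0.893), for Cartpt Erf (0.870) and for Pdyn Rerg (0.932). Among the 8 genes themselves the closest pair was Sst and Nppb (0.826), followed by Calca and Cartpt (0.708) and by Tac1 and Cartpt (0.707). Calca and Calcb reached 0.642.

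The comparison of all neurons asked whether neuropeptide transcripts differed between injured and sham ganglia. Of the 8 genes, 5 were lower in CCI and none was higher, with edgeR's quasi-likelihood test, a Benjamini-Hochberg adjusted p under 0.05 over all genes and an absolute log2 fold change above 0.5. Of all 17233 genes tested, 27.8% passed these limits, 15.2% being higher and 12.7% lower. Calca fell from 7865 and 8517 CPM to 4071 and 4708 CPM (log2 fold change -0.84 ± 0.08 SE, edgeR adjusted p = 3.06e-04), which is 1.87-fold. Calcb fell from 408 and 421 to 216 and 241 CPM (-0.81 ± 0.06, edgeR adjusted p = 1.07e-04). Tac1 fell from 2692 and 3085 to 1274 and 1731 CPM (-0.89 ± 0.17, edgeR adjusted p = 0.0146). The 3 precursors of CGRP and substance P thus dropped to a similar degree, with no overlap between sham and CCI libraries. Cartpt fell from 226 and 302 to 131 and 149 CPM (-0.86 ± 0.16, edgeR adjusted p = 0.00857), and Sst from 28.6 and 19.2 to 10.6 and 6.51 CPM (-1.43 ± 0.35, edgeR adjusted p = 0.0386). Nppb, the partner of Sst in NP1-like neurons, had 33.0 and 19.8 CPM in sham and 15.3 and 12.7 CPM in CCI and did not pass (-0.85 ± 0.30, edgeR adjusted p = 0.0856). Pdyn, with 31, 97, 18 and 24 UMIs in all, did not pass either (-1.40 ± 0.53, edgeR adjusted p = 0.0672). Penk had overlapping groups, with 13.8 and 8.94 CPM in sham and 14.1 and 10.7 CPM in CCI (0.18 ± 0.26, edgeR adjusted p = 0.596). The median log2 fold change of the 8 genes was -0.86, beside -0.01 for all genes tested.

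In such sums, fewer cells of a type and less RNA per cell cannot be told apart. With 2 libraries a group, Tac1 lost its call with either sham library left out (adjusted p = 0.0817 without Male-Sham, 0.106 without Female-Sham), Sst with either sham library or Female-CCI left out (0.157, 0.102 and 0.0915) and Cartpt with either CCI library left out (0.0776 without Male-CCI, 0.0589 without Female-CCI), all in edgeR, whereas Nppb passed without Female-Sham (log2 fold change -1.18, adjusted p = 5.05e-04) and Pdyn without Male-Sham (adjusted p = 0.00182). The summed SGC markers in neurons were lower in CCI, at 1277, 1593, 854 and 1054 CPM over 6 genes of which none was at 0. Their part in the result was not tested.

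Restricted to Sprr1a- neurons, none of the 8 genes passed between CCI and sham, whereas 4.47% of all 16406 genes did. At an unadjusted p under 0.05 the count was 0 in edgeR, and DESeq2 called 0. Calca stood at 7987 and 8787 CPM in sham and 8329 and 9075 CPM in CCI (0.03 ± 0.07), Calcb at 412 and 431 against 418 and 438 CPM (0.00 ± 0.05), and Tac1 at 2734 and 3184 against 2742 and 3436 CPM (0.04 ± 0.14). For the CGRP and substance P precursors, sham and CCI libraries overlapped and the errors were small beside the differences over all neurons. Cartpt (229 and 311 against 251 and 276 CPM) also overlapped. Sst had 29.0 and 19.8 CPM in sham and 22.9 and 12.9 CPM in CCI (-0.47 ± 0.38, edgeR adjusted p = 0.474), and Nppb had 32.7 and 18.9 against 19.8 and 15.6 CPM (-0.56 ± 0.33, edgeR adjusted p = 0.336). For these NP1-like genes and for Penk (14.0 and 8.56 against 17.1 and 11.97 CPM, 0.35 ± 0.32) and Pdyn (0.194 and 0.523 against 0.241 and 0.303 CPM) the error left room for a difference that 2 pools a group could not show. Without Female-Sham, Nppb passed (-0.90, edgeR adjusted p = 0.0348).

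**Figure D2:**
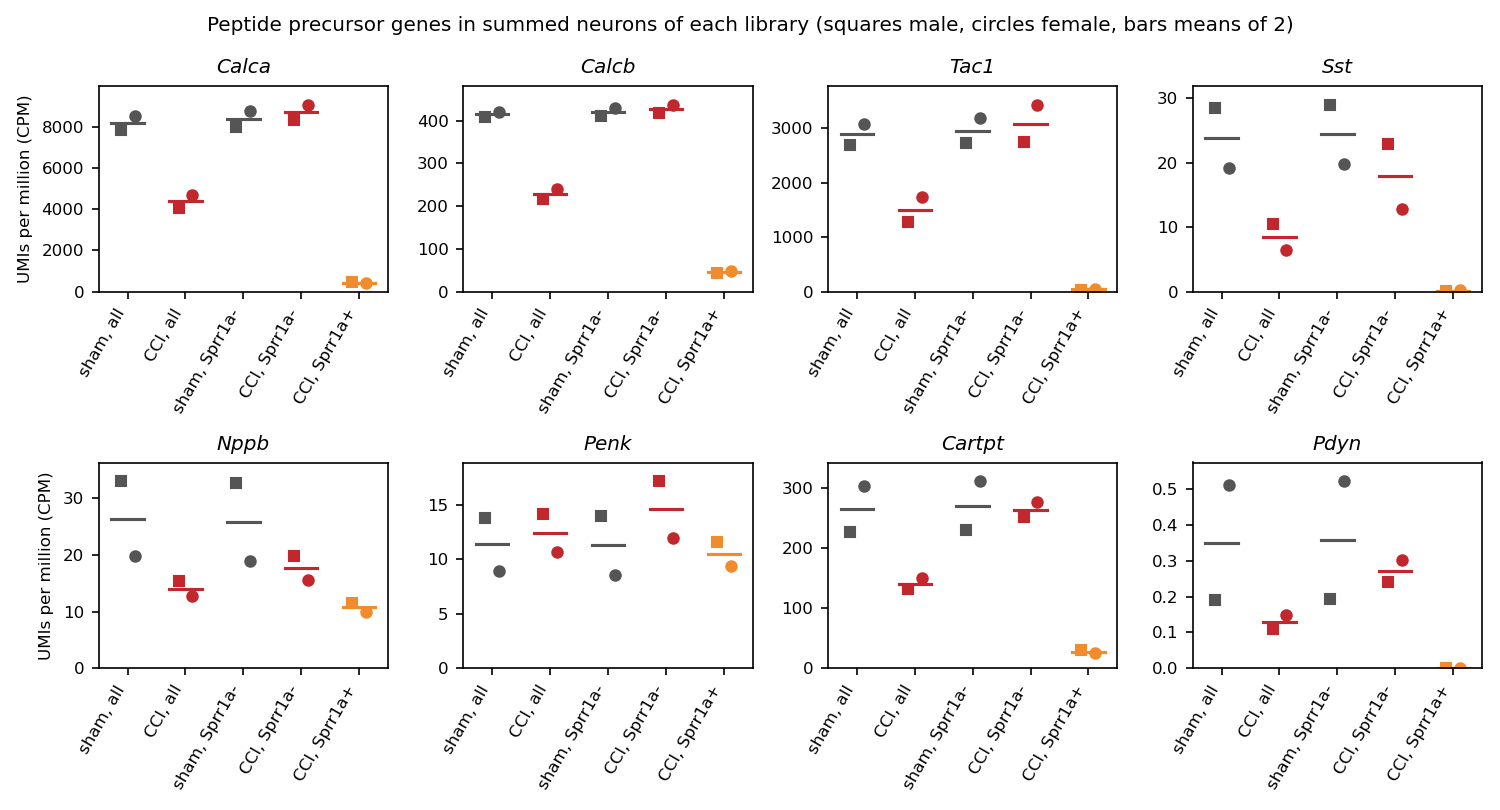
Level of the 8 neuropeptide genes in summed neurons of each library, in CPM on linear axes that start at 0. Squares are male and circles female libraries, and bars are means of 2. For Calca, Calcb, Tac1 and Cartpt the Sprr1a- neurons of CCI sit with the sham neurons and the Sprr1a+ neurons lie near the axis, whereas for Penk all 5 populations lie between 8.56 and 17.1 CPM.

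Sprr1a+ neurons of CCI were compared with Sprr1a- neurons of sham and, within each CCI library, with the Sprr1a- neurons beside them. Both comparisons use the same Sprr1a+ cells. In both, the makeup of cell types and the RNA per cell cannot be told apart. The PEP1-, PEP2- and PEP3/4-like clusters were at most 0.663% Sprr1a+ and the CCI-ind-like clusters 91.4% to 98.6%, with cells of 4 libraries together. Of the 8 genes, 7 were lower against sham, where 49.8% of all 16880 genes passed (23.4% higher, 26.4% lower), and 7 were lower within CCI, where 45.5% of 16241 genes passed (20.9% higher, 24.7% lower). The 7 were Calca, Calcb, Tac1, Sst, Nppb, Cartpt and Pdyn, and Penk was not among them in either comparison under the main settings. Because 26.4% of all genes fell against sham, the count of 7 of 8 is read beside that background, and the members' median log2 fold change against sham was -3.64, beside -0.01 for all genes tested.

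Calca stood at 460 and 417 CPM in the Sprr1a+ neurons of Male-CCI and Female-CCI, 19.1-fold below the mean of the sham Sprr1a- neurons (log2 fold change -4.11 ± 0.08, edgeR adjusted p = 2.39e-08). Calcb, at 43.8 and 47.3 CPM, was 9.25-fold lower (-3.06 ± 0.07, edgeR adjusted p = 1.88e-08). Tac1, at 29.5 and 55.3 CPM, was 69.8-fold lower (-5.98 ± 0.49, edgeR adjusted p = 0.00347). The Tac1 CPM lay within the range of the SGC-like cells, but per cell there was more of it, with 2595 and 4460 UMIs in 1467 and 1790 Sprr1a+ neurons against 16 and 42 UMIs in the 130 and 111 SGC-like cells of the same libraries. Calca and Calcb stood above the SGC-like range in CPM as well. Sst fell to 5 and 19 UMIs, or 0.0568 and 0.236 CPM, 167-fold lower (-7.26 ± 0.47, edgeR adjusted p = 3.31e-04). Cartpt stood at 29.8 and 24.6 CPM, 9.94-fold lower (-3.16 ± 0.20, edgeR adjusted p = 1.23e-04). Pdyn had no UMI in either library, which with a floor of 3 UMIs makes it at least 10.1-fold lower (edgeR adjusted p = 0.0135). Nppb stood at 11.6 and 9.88 CPM, 2.40-fold lower (-1.11 ± 0.32, edgeR adjusted p = 0.0450). NP1-like neurons, which held 93.0% to 96.8% of the Nppb UMIs of each library, were unevenly spread over these populations. They were 83 of 3239 and 71 of 5254 Sprr1a- neurons of sham and 98 of 1467 and 113 of 1790 Sprr1a+ neurons of CCI. Within that class the Nppb difference was larger, as given below, and the part of this makeup was not tested. Penk had 11.5 and 9.41 CPM, within the sham range (0.05 ± 0.28, edgeR adjusted p = 0.889). Tac1 lost its call with either sham library left out (edgeR adjusted p = 0.0595 and 0.0653) and Nppb with either CCI library left out (0.154 and 0.214), with cells of at most 5% mitochondrial UMIs (0.113), without the filter on low counts (0.152) and when any Sprr1a UMI made a cell Sprr1a+ (0.118). Summed over their lists, SGC markers went from 1288 and 1615 CPM in these sham neurons to 652 and 961 CPM in the Sprr1a+ neurons, and the 4 endothelial markers from 0.413 and 0.463 to 3.86 and 5.83 CPM, with 1 of them at 0 in Male-CCI. Their part in the result was not tested.

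Within the CCI libraries, where Sprr1a+ and Sprr1a- neurons share animals and preparation, the differences were of like size, toward lower levels in Sprr1a+ neurons. They were 19.8-fold for Calca (-4.14 ± 0.12, edgeR adjusted p = 0.00451), 9.40-fold for Calcb (-3.06 ± 0.03), 72.9-fold for Tac1 (-6.06 ± 0.30), 123-fold for Sst (-6.79 ± 0.46), 9.70-fold for Cartpt (-3.10 ± 0.16) and at least 7.63-fold for Pdyn. Nppb was 1.65-fold lower (-0.55 ± 0.06, edgeR adjusted p = 1.38e-05), and this call was lost with cells of at most 5% mitochondrial UMIs (-0.17, adjusted p = 0.225). NP1-like neurons were 31 of 1350 and 35 of 1848 Sprr1a- neurons of CCI, and a larger share of the Sprr1a+ ones. Penk differed by -0.29 ± 0.07 (edgeR adjusted p = 0.00343), below the limit of 0.5 on the fold change, but it passed as lower with cells of at most 5% mitochondrial UMIs (-0.59, adjusted p = 9.69e-05) and when any Sprr1a UMI made a cell Sprr1a+ (-1.31, adjusted p = 2.33e-24). With that last limit shallow cells more easily count as Sprr1a-, and the part of depth was not tested. Without the filter on low counts, Tac1 and Cartpt lost their calls (edgeR adjusted p = 0.0632 and 0.0705). The summed SGC markers were 652 and 961 CPM in the Sprr1a+ and 1091 and 1149 CPM in the Sprr1a- neurons of CCI, and their part in these results was not tested.

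Levels by the amount of Sprr1a in CCI neurons showed where along the scale the genes differed (values for Male-CCI, then Female-CCI). Calca was 8010 and 9104 CPM in neurons with no Sprr1a UMI and 8440 and 9063 CPM in those with a value up to 1. It was 1931 and 959 CPM between 1 and 2, 854 and 638 CPM between 2 and 3, and 279 and 265 CPM above 3. Tac1 was already at 70.2 and 93.7 CPM between 1 and 2, from 2619 and 3190 CPM up to 1. Calcb went from 438 and 447 CPM up to 1, to 220 and 131 CPM between 1 and 2 and to 30.9 and 30.7 CPM above 3. For Calca and Calcb the bin between 1 and 2, with 71 and 139 cells, was intermediate, whereas most of the difference in Tac1 lay below that bin. Penk was highest without a Sprr1a UMI (34.5 and 21.9 CPM), lowest between 1 and 2 (5.88 and 3.99 CPM) and 12.9 and 11.1 CPM above 3. In the sham libraries Penk was likewise 14.4 and 8.93 CPM without a Sprr1a UMI and 0 and 1.45 CPM up to 1. The PEP5-like clusters led by Penk were shallow, with medians of 20150 and 14804 UMIs, and shallow cells more easily lack a Sprr1a UMI. The part of depth and class makeup in the Penk values was not tested. Nppb ran from 24.6 and 20.2 CPM without Sprr1a to 11.4 and 7.93 CPM above 3.

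**Figure D3:**
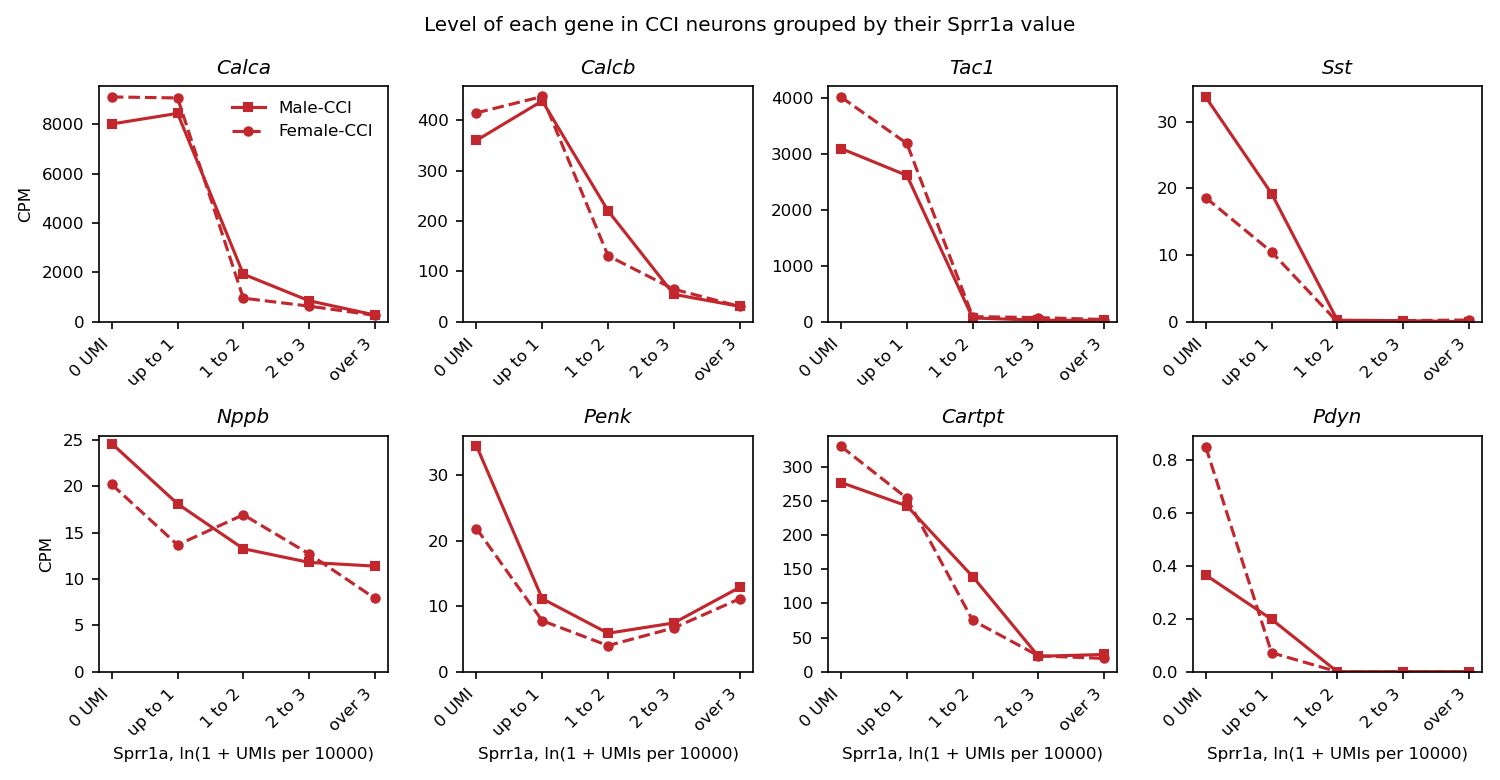
Level of each neuropeptide gene (CPM, linear axes from 0) in CCI neurons grouped by their Sprr1a value, ln(1 + UMIs per 10000). Solid lines with squares are Male-CCI and dashed lines with circles Female-CCI. Calca, Calcb, Tac1, Sst and Cartpt are lower above 1 than below it, whereas Penk has a low in the group from 1 to 2 and Nppb runs from 24.6 and 20.2 CPM at 0 UMI to 11.4 and 7.93 CPM above 3.

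The share of cells with a UMI was compared after each neuron was thinned to 2000 UMIs. Calca was found in 73.0%, 76.1%, 71.6% and 76.4% of Sprr1a- neurons and in 27.6% and 35.6% of Sprr1a+ neurons of CCI, but also in 48.9%, 45.3%, 14.6% and 38.7% of SGC-like cells, so the Sprr1a+ share lay within the range of the SGC-like cells. Without thinning it was found in 94.9% and 96.5% of Sprr1a+ and 98.0%, 98.0%, 94.2% and 98.3% of Sprr1a- neurons, and in 80.5%, 70.0%, 32.3% and 68.5% of the shallower SGC-like cells. Tac1 fell from 68.0%, 73.0%, 68.5% and 73.0% of Sprr1a- neurons to 5.59% and 9.11% of Sprr1a+ neurons, beside 21.6%, 21.3%, 4.62% and 13.5% of SGC-like cells. Calcb had 6.54% and 7.71% in Sprr1a+ neurons, beside 1.54% to 5.26% in SGC-like cells, and Cartpt 3.20% and 3.30%, beside 0% to 1.58%. For Calcb and Cartpt the Sprr1a+ shares of both CCI libraries thus lay above those of SGC-like cells, and at this depth they do not tell few cells with many transcripts from many cells with few.

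Within the named classes, Sprr1a- neurons of CCI were compared with those of sham. Of 46 tests over 10 classes (34 others had too few UMIs), 4 passed. The share of all genes that passed was 3.97% in NP1-like, 4.46% in NP2-like, 2.67% in NP3-like, 3.76% in PEP1-like, 4.5% in PEP2-like, 3.71% in PEP3/4-like, 3.44% in PEP5-like, 1.06% in NF1-like, 1.94% in NF2-like and 1.71% in cLTMR-like neurons. The NP1-like class (83, 71, 31 and 35 cells) joined a cluster led by Sst, Nppb and Gm525 (2.03% Sprr1a+) with one led by Wfdc3 (89.4% Sprr1a+). Over all cells of the first, Nppb was 1285 CPM in sham and 909 CPM in CCI, Tac1 365 and 297 CPM, and Sst 1302 and 1021 CPM. In the second, the CCI cells had 134, 23.8 and 0.212 CPM of these genes. The part of this makeup in the values below was not tested. As a whole, the class held the 2 genes that fell. Nppb fell from 1314 and 1146 to 781 and 661 CPM (-0.79 ± 0.12, edgeR adjusted p = 3.98e-04). Tac1 fell from 395 and 287 to 238 and 227 CPM (-0.57 ± 0.14, edgeR adjusted p = 0.0214), a call lost without Male-Sham (-0.34, adjusted p = 0.543), without Male-CCI (0.0922) and with doublets kept (0.121). Sst had 1196 and 1291 CPM in sham and 962 and 579 CPM in CCI and did not pass (-0.71 ± 0.21, edgeR adjusted p = 0.138), although its groups did not overlap. In edgeR it passed without Male-Sham (adjusted p = 0.00586), without Female-Sham (0.0212), without Male-CCI (6.77e-10) and with doublets kept (0.00596).

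The 2 genes called higher were in the other non-peptidergic classes. In NP2-like neurons (460, 591, 147 and 162 cells) Calca rose from 1289 and 1691 to 2433 and 2424 CPM (0.68 ± 0.14, edgeR adjusted p = 0.0314). In edgeR the call was lost without Male-CCI (adjusted p = 0.412), without Female-CCI (0.31) and with doublets kept (0.222), and without Male-Sham the log2 fold change was 0.49. Tac1 in the same cells had 181 and 238 CPM in sham and 405 and 477 CPM in CCI without passing (1.05 ± 0.21, edgeR adjusted p = 0.0813), and it passed without Male-Sham (5.35e-19) or Female-Sham (2.40e-43), without the filter on low counts (0.00135) and in DESeq2 (5.41e-04). Cartpt in these cells had 4.22 and 6.67 CPM in sham and 9.47 and 15.6 CPM in CCI without passing (1.18 ± 0.40, edgeR adjusted p = 0.187), and it passed with either sham library left out, without Male-CCI (0.0339) and without the filter (5.65e-06). In NP3-like neurons Cartpt rose from 4.10 and 8.51 to 18.4 and 15.7 CPM (1.40 ± 0.31, edgeR adjusted p = 0.0356), from a level at or below the SGC-like range of sham, and lost the call without Male-CCI (0.238), without Female-CCI (0.19), with doublets kept (0.758), at resolution 1.2 (0.397) and without injury genes in the clustering (0.201), and DESeq2 gave it no adjusted p. NF1-like Cartpt, at 42.2 and 52.0 CPM in sham and 24.5 and 11.9 CPM in CCI, did not pass (-1.24 ± 0.28, edgeR adjusted p = 0.116) but did with either sham library left out, without Male-CCI (0.0109), without the filter and with doublets kept (0.0166). In the peptidergic classes, which hold most of these transcripts, Calca, Tac1 and Cartpt passed in none, and in the PEP1-, PEP2- and PEP3/4-like classes they passed in no alternative either. In PEP5-like neurons Calca had 334 and 392 CPM in sham and 468 and 659 CPM in CCI (0.60 ± 0.22, edgeR adjusted p = 0.233) and passed without Female-Sham (4.04e-12), without Male-CCI (7.73e-04), with the sex block (2.23e-11) and without the filter (4.28e-05), while Tac1 passed without Female-CCI (-0.51), Cartpt without Female-Sham (1.30) and Penk without Male-Sham (0.71). PEP1-like neurons had 20176 and 19423 CPM of Calca in sham and 18493 and 18383 CPM in CCI, and 7832 and 7543 against 6724 and 7572 CPM of Tac1. Penk in PEP5-like neurons was 240 and 128 CPM in sham and 253 and 179 CPM in CCI (0.21 ± 0.49, edgeR adjusted p = 0.867). Calcb met the p limit but not the fold limit in 6 classes, with log2 fold changes of 0.24 in PEP1-, 0.41 in PEP2- and 0.38 in NF2-like and of -0.26 in NP2-, -0.43 in PEP5- and -0.45 in cLTMR-like neurons.

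In 3 classes (NP1-, NF1- and NF2-like) the main clustering left at least 10 Sprr1a+ neurons in each CCI library, and these were compared with the Sprr1a- neurons of sham. Of 15 tests 13 passed, 11 lower and 2 higher, where 41.6%, 45.5% and 43.5% of all genes passed. NP1-like neurons held 98 and 113 Sprr1a+ cells, most of them in a cluster led by Wfdc3, Cavin1 and Stom, whereas the sham cells were mostly in a cluster led by Sst, Nppb and Gm525. In them Sst went from 1196 and 1291 CPM to 0 and 2.54 CPM (-9.92 ± 0.76, edgeR adjusted p = 0.0100), a call lost without Male-Sham (adjusted p = 0.092). Nppb went from 1314 and 1146 to 143 and 124 CPM (-3.14 ± 0.10, edgeR adjusted p = 6.73e-36), 9.20-fold lower. In these Sprr1a+ cells Nppb thus stood at a level that Sst did not reach. Whether that Nppb was retained or newly made was not tested. Tac1 fell to 16.8 and 30.8 CPM (-3.79 ± 0.46), Calca from 282 and 294 to 123 and 164 CPM (-0.95 ± 0.12) and Calcb from 21.8 and 27.2 to 7.74 and 9.22 CPM (-1.46 ± 0.21), all 3 ending at or below the SGC-like levels of sham.

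NF2-like neurons (79 and 80 Sprr1a+ cells) were the NF class rich in Calca. Calca fell there from 6740 and 7249 to 3029 and 1730 CPM (-1.31 ± 0.32, edgeR adjusted p = 0.0285). The call was lost without Male-Sham (log2 fold change -1.38) or Female-Sham (-1.26) and without the filter on low counts (-1.33, edgeR adjusted p = 0.196). Calcb fell from 239 and 219 to 90.7 and 88.5 CPM (-1.12 ± 0.10, edgeR adjusted p = 6.24e-06). The CGRP transcripts of these Sprr1a+ cells thus stayed well above the SGC-like level. Tac1 fell from 48.7 and 64.4 to 19.8 and 31.5 CPM (-0.94 ± 0.21, edgeR adjusted p = 0.00620), all below the SGC-like level of sham. This call was lost with doublets kept (edgeR adjusted p = 0.256). Cartpt rose from 6.66 and 4.61 to 32.3 and 16.5 CPM (2.38 ± 0.40, edgeR adjusted p = 0.00249), but it lost the call without Female-Sham (log2 fold change 2.15). With doublets kept it was lower instead (-0.34, edgeR adjusted p = 0.36). The call was also lost with clusters formed without injury genes (edgeR adjusted p = 0.241). There Cartpt in Sprr1a+ cells was 36.4 CPM in Male-CCI and 5.66 CPM in Female-CCI, against 6.51 and 5.31 CPM in sham.

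NF1-like neurons (55 and 32 Sprr1a+ cells) held the other gene that rose. Penk went from 1 UMI in each sham library (0.0773 and 0.0970 CPM) to 7.32 and 17.6 CPM (7.06 ± 0.65, edgeR adjusted p = 1.07e-06), a ratio of 118 with a 95% counting interval of 31.3 to 995. Calcb fell from 39.8 and 60.5 to 18.6 and 11.2 CPM (-1.29 ± 0.32), a call lost without Male-CCI or Female-CCI (adjusted p = 0.147 and 0.203) or with doublets kept (0.754), and Cartpt from 42.2 and 52.0 to 4.22 and 5.88 CPM (-2.99 ± 0.22, edgeR adjusted p = 9.56e-08). Tac1 fell from 204 and 165 to 97.4 and 64.6 CPM (-0.79 ± 0.21, edgeR adjusted p = 0.0252), but this direction depended on the makeup of the class, which joins a Pvalb cluster richer in Tac1 with an Ntng1 cluster that held 55 and 31 of the Sprr1a+ cells. In the Ntng1 cluster alone, an alternative added after the data were seen in which 46.6% of genes passed, Tac1 was higher in Sprr1a+ cells (54.2 and 65.6 against 97.4 and 66.3 CPM, 0.82 ± 0.17, edgeR adjusted p = 0.00370), at or below SGC-like levels of sham. Cartpt fell there from 22.8 and 14.3 to 4.22 and 4.86 CPM (-1.78 ± 0.33), a smaller change than in the whole class. Penk was higher there too, from 0 and 1 UMI to 33 and 30 UMIs (7.44 ± 0.74, edgeR adjusted p = 8.85e-07). The direction of Tac1 in this class thus depended on its makeup. For Penk the Ntng1 cluster was no separate check, as it held nearly all the same Sprr1a+ cells. With 1 UMI in each sham library of the class, the direction of Penk could hardly turn. Penk is hardly seen in SGC-like cells (at most 1.41 CPM).

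**Figure D4:**
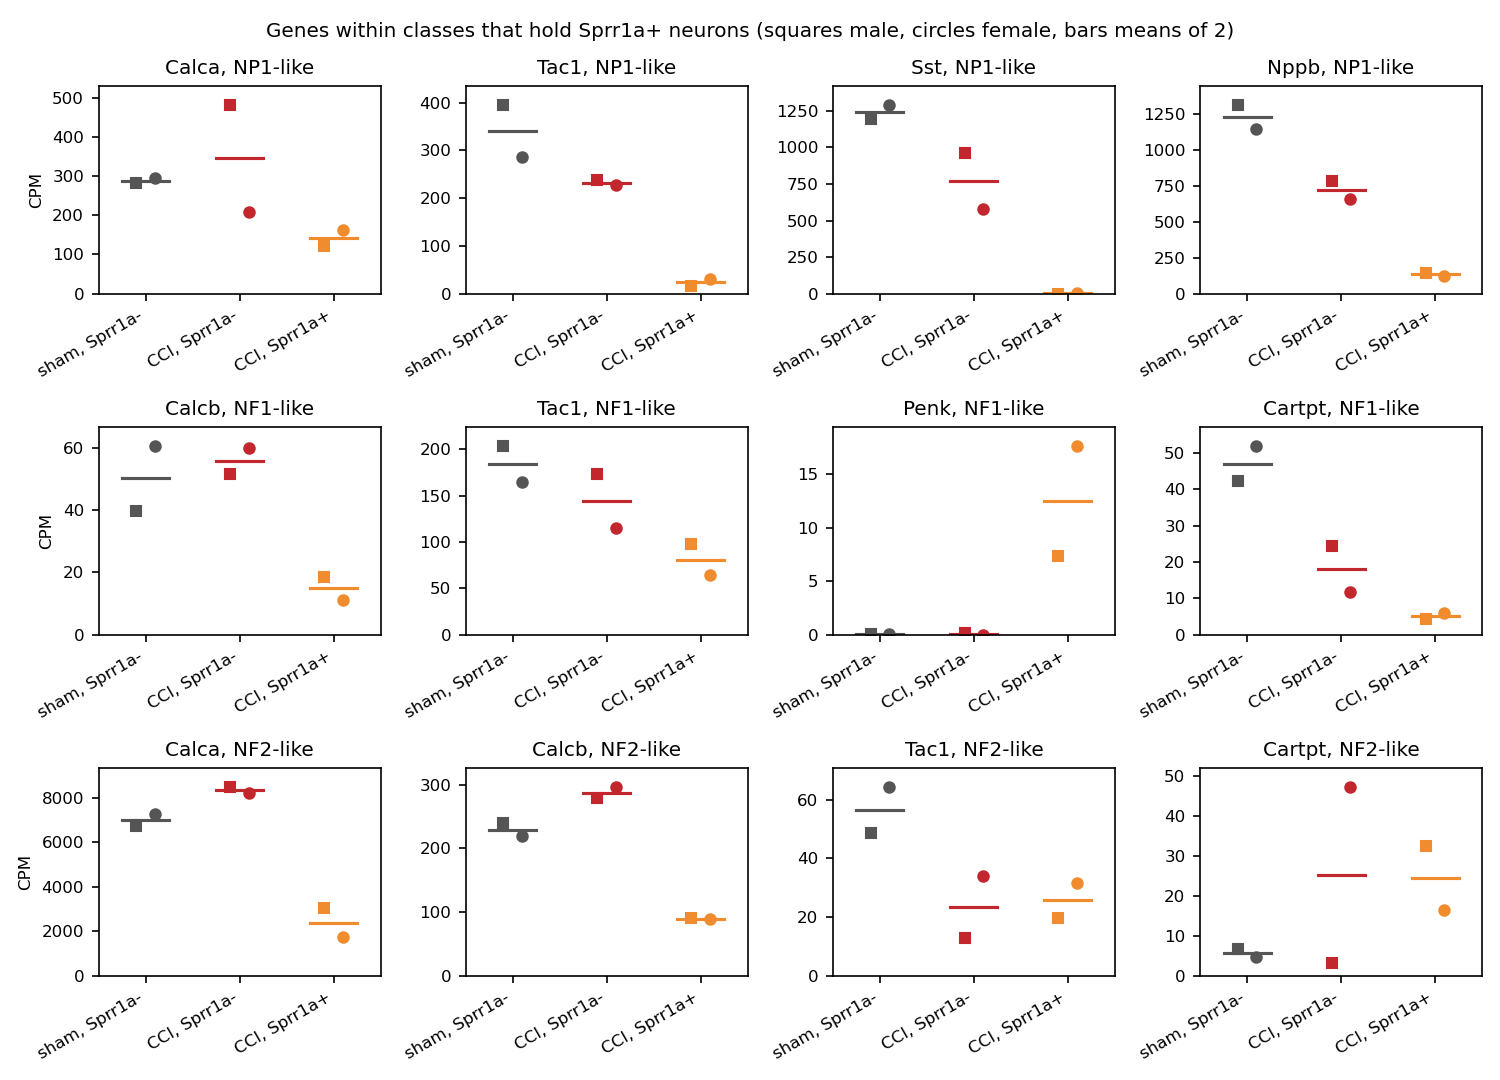
Level in CPM (linear axes from 0) of selected genes in NP1-like (top), NF1-like (middle) and NF2-like neurons (bottom), for Sprr1a- neurons of sham, Sprr1a- neurons of CCI and Sprr1a+ neurons of CCI. Squares are male and circles female libraries, and bars are means of 2. Sst and Nppb step down over the 3 populations, Sst to 0 and 2.54 CPM and Nppb to 143 and 124 CPM, and Penk in the NF1-like class stands at 7.32 and 17.6 CPM in the Sprr1a+ neurons and below 1 CPM in the others.

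When clusters were formed without 1026 injury genes, Sprr1a+ neurons could also be compared in NP2-like (89 and 115 cells, 50.4% of genes passing) and PEP5-like neurons (129 and 145 cells, 46.2%). In NP2-like neurons Calca fell from 1288 and 1690 to 156 and 199 CPM (-3.16 ± 0.21, edgeR adjusted p = 3.03e-04) and Calcb from 534 and 552 to 28.9 and 52.4 CPM, whereas Cartpt rose from 4.21 and 5.64 to 6.40 and 11.8 CPM (0.80 ± 0.26, edgeR adjusted p = 0.0167) and Penk from 4 and 3 UMIs in the sham libraries to 6 and 4 UMIs in far fewer cells (3.20 ± 0.73, edgeR adjusted p = 0.00127). In PEP5-like neurons Tac1 fell from 2258 and 2185 to 70.4 and 93.3 CPM (-4.46, edgeR adjusted p = 4.51e-15) and Calcb from 270 and 289 to 17.6 and 21.9 CPM (-3.52, edgeR adjusted p = 9.08e-21). Penk in the same PEP5-like neurons had 239 and 126 CPM in sham and 51.4 and 56.1 CPM in Sprr1a+ cells and did not pass (-1.45 ± 0.48, edgeR adjusted p = 0.127). Tac1 in PEP5-like neurons thus fell to the CPM range of SGC-like cells while the Penk of those cells stayed far above theirs.

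Over 80% of the neurons of 6 clusters were Sprr1a+, and the neuropeptide transcripts were unevenly spread over them. Whether a transcript was retained or newly made in these cells was not tested. As the clusters were formed from the same cells, these are descriptions. Penk was 47.6 CPM in a cluster led by Crh and Scpep1 (426 cells) and 52.0 CPM in a cluster led by Gal and Prss12 (310 cells), and at most 2.45 CPM in the other 4. In the Crh cluster the 51 sham cells had 51.2 CPM of Penk and the CCI cells 47.2 CPM. High Penk levels were thus found in PEP5-like neurons on the Sprr1a- side and in these 2 clusters on the Sprr1a+ side. Nppb was 157 CPM in the Wfdc3 and Cavin1 cluster (255 cells), where its 30 sham cells had 375 CPM and its CCI cells 134 CPM, and below 1 CPM in the other 5. Calca was 882 CPM in a cluster led by Ly6a and Ly6c1 (409 cells) and 587 CPM in one led by Wfdc3 and Flnc (575 cells), against 71.6 to 171 CPM in the other 4. Cartpt was highest in the same Ly6a cluster at 135 CPM.

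**Figure D5:**
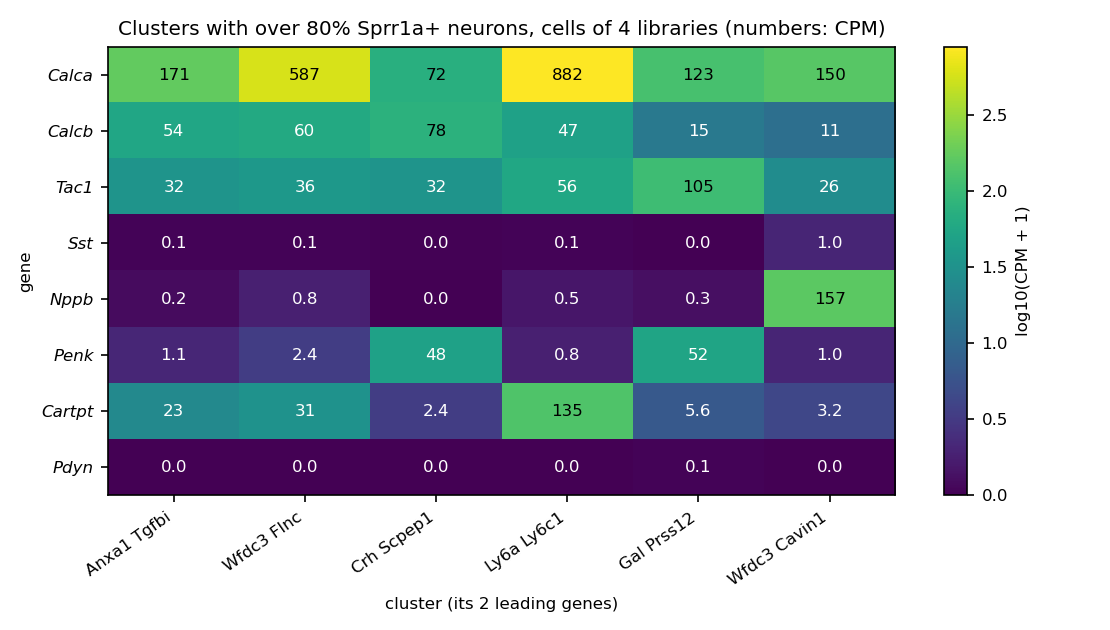
Level of each neuropeptide gene (rows) in the 6 clusters with over 80% Sprr1a+ neurons (columns, named by their 2 leading genes), cells of 4 libraries together. Numbers are CPM and the colour is log10(CPM + 1). Penk stands out in the Crh and Gal clusters, Nppb in the Wfdc3 Cavin1 cluster and Cartpt in the Ly6a cluster.

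The 42 and 144 Sprr1a+ neurons of the sham libraries gave a further view without nerve constriction. They had 183 and 288 CPM of Calca, 40.5 and 63.0 CPM of Tac1, 134 and 133 CPM of Calcb, 55.9 and 36.2 CPM of Cartpt and 53.9 and 47.4 CPM of Nppb. Calca was thus below, and Tac1 overlapped, the Sprr1a+ neurons of CCI, whereas Calcb and Nppb were higher in both sham libraries than in both CCI libraries. These groups were not tested, given the small number of cells.

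Genes that process, store or receive these peptides were read from 4 lists. Of 8 processing genes, none was higher and 3 were lower in the Sprr1a+ neurons of CCI than in the Sprr1a- neurons of sham, beside 23.4% and 26.4% of all genes, a lower share not far from that of the list, namely Pcsk1 (a prohormone convertase), Scg5 (the chaperone of another convertase) and Pam (the amidating enzyme). Scg5 fell from 157 and 160 to 70.2 and 71.9 CPM (-1.01 ± 0.05) and Pam from 108 and 109 to 53.2 and 50.4 CPM (-0.92). Of 10 granin and dense-core vesicle genes, 6 were lower (Chgb, Scg2, Scg3, Cadps, Cadps2 and Rab27b) and 2 higher (Vgf and Ptprn). Scg2 (secretogranin II) fell from 499 and 516 to 72.7 and 73.1 CPM (-2.65 ± 0.06, edgeR adjusted p = 1.84e-08), whereas Vgf, a granin-like precursor, rose from 72.3 and 75.1 to 293 and 304 CPM (2.17 ± 0.06, edgeR adjusted p = 4.52e-08). The peptide storage genes thus moved in both directions, with a median of -0.80. Of 12 receptor genes tested, 7 were lower (Calcrl, Ramp1, Ramp3, Sstr2, Oprm1, Oprd1 and Oprk1) and 2 higher (Ramp2 and Npr3). The somatostatin receptor Sstr2 fell from 34.4 and 36.9 to 0.329 and 0.471 CPM (-6.33 ± 0.13, edgeR adjusted p = 1.56e-08), and the mu opioid receptor Oprm1 from 9.03 and 9.21 to 0.988 and 1.15 CPM (-2.94). Of 11 other neuropeptide genes tested, 8 were higher and 3 lower, with a median of 4.10, opposite in sign to that of the 8 constitutive genes. Npy rose from 0.0626 and 0.0709 to 286 and 179 CPM (11.9) and Nts from 35.7 and 45.7 to 1888 and 2058 CPM (5.75). In Sprr1a- neurons of CCI against sham, where none of the 8 constitutive genes passed, 5 of the other neuropeptide genes were higher (Npy, Nts, Crh, Ucn and Adm) and none lower, and of the processing and receptor genes none passed, beside 4.47% of all genes.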

How the data were processed

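The deposited files hold UMI counts per gene and cell barcode, which the authors made from Chromium 3′ v3 libraries with Cell Ranger against mm10 (version 2.1.1 in the submitters' notes, 3.0.2 in the file headers). Cells with at least 1500 genes and at most 10% mitochondrial UMIs were kept. Scrublet's automatic limit marked 2, 121, 0 and 0 cells, so the highest-scoring cells were removed up to the study's doublet number for each library. Seurat 5.3.0 integrated the libraries on 3000 variable genes without the 8 neuropeptide genes (20 components, resolution 0.8), and clusters were named from marker lists. Counts were summed per library and population and tested with edgeR 4.0.16 (quasi-likelihood, TMM, filterByExpr, R 4.3.3). Genes with a Benjamini-Hochberg adjusted p under 0.05 over all genes and an absolute log2 fold change above 0.5 were called. Sprr1a was left out of tests between Sprr1a classes, classes needed 10 cells per library, and SE is the log2 fold change over the root of F. The script was tested on simulated data. DESeq2 1.42.0, other filters, limits and clusterings, and leaving out each library were alternatives. The 8 genes were all reported, and up to 3 most alike genes were named for each. Members, lists and markers were chosen with earlier results of these data known.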

Additional observations from a re-analysis of the deposited data

Results flagged for a closer look

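Some genes moved in opposite directions in the male and female pools. Each value is the CCI minus sham difference of log2(CPM + 1) in males and then in females, and the difference between the sexes was not tested, as there was 1 pool of each sex and surgery. In Sprr1a- neurons Cartpt differed by 0.13 and -0.17. With the Sprr1a+ neurons of CCI set against the Sprr1a- neurons of sham, Penk differed by -0.26 and 0.12. Within Sprr1a- neurons of single classes, the NP1-like class had Calca at 0.77 and -0.49 and Calcb at 0.83 and -0.39, both from levels near those of the SGC-like cells. PEP2-like neurons had Tac1 at -0.23 and 0.28, PEP3/4-like neurons had Cartpt at 0.18 and -0.56, and NF2-like neurons had Cartpt at -0.87 and 3.1.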

How the results depend on the processing

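Over all neurons the count of genes called, 5, was 3 to 4 when a library was left out (3 without Female-CCI). In Sprr1a- neurons, where none was called, it was 1 with sex as replicate block and 0 to 1 with a library left out, the gene being Nppb in both cases (-0.53, edgeR adjusted p = 0.0359 with the block). In Sprr1a- neurons of single classes, the 4 calls became 9 without the filter on low counts, 10 with the block (adding among others Cartpt and Tac1 in NP2-like, Cartpt in NF1-like and Calca in PEP5-like neurons) and 7 to 11 with a library left out. The counts for Sprr1a+ neurons stayed within 1.5 times in all alternatives, at 6 against sham and 12 to 14 within classes with a library left out. The replicate numbers follow accession order and pair libraries by sex only. With the block, Nppb and Pdyn were added over all neurons (7 calls), and within classes Sst (adjusted p = 0.0725) and Tac1 (0.114) of Sprr1a+ NP1-like neurons were lost. Among results called in the main setting or the alternative, the direction turned for 2, Tac1 of NF1-like neurons (0.82 in the Ntng1 cluster alone) and Cartpt of NF2-like neurons (-0.34 with doublets kept). Turns of direction in genes called in neither were not counted. The cause was not tested beyond the makeup of the class. The comparison within CCI has no residual degrees of freedom with a library left out. Of the values of single genes, 1106 kept their call status or, where no test was possible, stayed within the main SE. A further 53 passed only in the alternative, 43 only in the main setting and 12 without a test moved. With 1 pool per sex and surgery, genes of few UMIs, such as Pdyn, were limited by depth. The alternatives without the unnamed clusters and with the Ntng1 cluster alone were chosen after seeing the data.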
